A study of Mus musculus with 11 samples.

Results

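Leukocytes leave the blood by a sequence of contacts with the vessel wall, and 8 genes of this sequence were followed in E15.5 mouse fetal liver. They were the endothelial selectins Sele and Selp, the selectin ligand Selplg, the endothelial adhesion molecules Icam1, Vcam1 and Madcam1, and Itgal and Itgb2, the chains of the leukocyte integrin LFA-1. The genes were chosen by name, as adhesion molecules that cytokines induce on endothelium and their leukocyte partners, and all 8 were found by Ensembl identifier among the 52636 genes of the count tables. All 8 also passed the filter on low counts, which left 17243 genes, although Sele and Madcam1 had so few reads in the control livers that they passed through the livers in which they were high.

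RNA of whole single livers was sequenced from 3 wild-type (WT) embryos, 2 Tnfr1-/- embryos, 3 Casp8-/- Mlkl-/- embryos and 3 Casp8-/- Tnfr1-/- embryos, none of them treated. The knockouts are germline, so every cell of an embryo carries them, and 5 of the 11 livers lack TNFR1, the main receptor through which TNF induces adhesion molecules. Caspase-8 restrains necroptosis, and MLKL carries out the last step of that death. Both dKO genotypes therefore lack caspase-8, but MLKL is intact only in Casp8-/- Tnfr1-/- livers, and these livers were compared with each of the other genotypes, while Casp8-/- Mlkl-/- and Tnfr1-/- livers were each compared with WT.

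E-selectin (Sele) is made by endothelial cells after stimulation by TNF or IL-1, largely through transcription of its gene by NF-kB, and slows passing leukocytes. P-selectin (Selp) does the same work but is also stored ready made in endothelial cells and platelets, and both bind PSGL-1 (Selplg) on leukocytes. Firm arrest follows when leukocyte integrins bind ICAM-1, VCAM-1 or MAdCAM-1. VCAM-1 has a further place in fetal liver, on the macrophages around which erythroblasts mature.

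RefSeq promoter sequences for GRCm38.p6 were at hand for 4 of the 8 genes, Sele, Selp, Icam1 and Madcam1. The 180 bases before the transcript start are shown because transcript changes of these genes are described next and because the motif matches lie within them. Capitals mark matches, on either strand, to a short NF-kB form (GGNNNTTCC), a TATA box (TATAAA), AP-1 (TGANTCA), ATF/CREB (TGACNTCA) and STAT (TTCNNNGAA), all sequences reading 5′ to 3′ on the plus strand. Sele lies at chr1:164048054-164048233, Selp at chr1:164115084-164115263, Icam1 at chr9:21015760-21015939 and Madcam1 at chr10:79664379-79664558.
Sele: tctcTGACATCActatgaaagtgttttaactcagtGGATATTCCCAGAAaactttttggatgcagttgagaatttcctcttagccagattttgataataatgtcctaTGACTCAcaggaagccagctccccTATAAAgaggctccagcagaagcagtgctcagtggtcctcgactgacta
Selp: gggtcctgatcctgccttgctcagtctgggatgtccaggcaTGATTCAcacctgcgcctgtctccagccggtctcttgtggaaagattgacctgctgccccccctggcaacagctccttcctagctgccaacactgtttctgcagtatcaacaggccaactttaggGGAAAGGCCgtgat
Icam1: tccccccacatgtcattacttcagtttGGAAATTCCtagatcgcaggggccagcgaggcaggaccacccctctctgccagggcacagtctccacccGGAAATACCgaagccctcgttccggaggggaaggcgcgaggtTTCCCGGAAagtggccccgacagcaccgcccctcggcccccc
Madcam1: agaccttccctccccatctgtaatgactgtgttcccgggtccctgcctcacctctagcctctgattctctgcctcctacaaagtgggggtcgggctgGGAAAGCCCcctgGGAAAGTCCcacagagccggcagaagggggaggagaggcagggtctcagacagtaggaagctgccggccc

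The NF-kB form matched in all 4 promoters, and in 15.7% of the 32851 promoters of the table within 250 bases before the start. Icam1 held 2 matches, at bases 153 to 145 and 84 to 76 before the start, and Madcam1 also 2, at bases 83 to 75 and 70 to 62. The match of Selp was the nearest to a start, at bases 14 to 6. The single match of Sele, at bases 145 to 137, shares letters with a STAT match at bases 140 to 132, so that both are printed as 1 run of capitals. Only Sele among the 4 held a TATA box (12.4% of all promoters) and an ATF/CREB match (7.49%). AP-1 matched in Sele and Selp (6.75% of all promoters), and STAT in Sele and Icam1 (7.02%). A match is a string of letters and was not tested as a binding site.

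Library totals lay between 23129212 and 35819339 reads on exons. Casp8-/- Tnfr1-/- replicate 3 stood apart from the rest, with correlations of log2 CPM of 0.840 to 0.891 with the other 10 livers, which correlated with each other at 0.949 or more. It alone held striated muscle transcripts at a high level (1633 CPM summed over 12 markers, against at most 39.0 in the other livers). Casp8-/- Mlkl-/- replicate 1 had the highest sums of hepatocyte and macrophage markers. Results are therefore also given without both. Reads of Casp8 lay between 27.7 and 33.9 CPM in the 5 livers with intact Casp8, between 7.82 and 10.2 in Casp8-/- Mlkl-/- and between 11.5 and 21.9 in Casp8-/- Tnfr1-/- livers. Mlkl averaged 0.994 ± 0.248 CPM (SD, n = 3) in Casp8-/- Mlkl-/- livers against 4.32 ± 0.121 (n = 3) in WT. Tnfrsf1a, which encodes TNFR1, was counted at 50.1 ± 0.477 CPM (SD, n = 2) in Tnfr1-/- and 51.1 ± 3.46 (n = 3) in WT livers. In Casp8-/- Tnfr1-/- livers, which also lack TNFR1 by their labels, it lay between 76.0 and 425 CPM, so counts over the whole gene do not check this genotype.

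In WT livers the 8 genes covered a wide range of levels. Per kilobase of counted exon, the level of Vcam1 was the highest, at 43.9 ± 2.43 CPM per kb (SD, n = 3). Selplg (10.5 ± 1.82), Itgb2 (9.27 ± 0.909), Icam1 (8.18 ± 0.246) and Itgal (7.12 ± 0.997) followed, also in CPM per kb. The livers overlapped between neighbours in this order except between Vcam1 and Selplg and between Icam1 and Itgal. Selp (0.386 ± 0.157 CPM per kb), Madcam1 (0.142 ± 0.108) and Sele (0.00891 ± 0.00772) were far lower, and of these only Selp and Madcam1 overlapped. In Casp8-/- Tnfr1-/- livers the group means ran from 2.41 ± 0.510 CPM per kb (SD, n = 3) for Madcam1 to 42.2 ± 20.4 for Itgb2, but both ends rested on replicate 3. In replicates 1 and 2 Sele was the lowest of the 8, at 1.03 and 0.946 CPM per kb, and Vcam1 the highest, at 47.8 and 43.0.

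**Figure D1:**
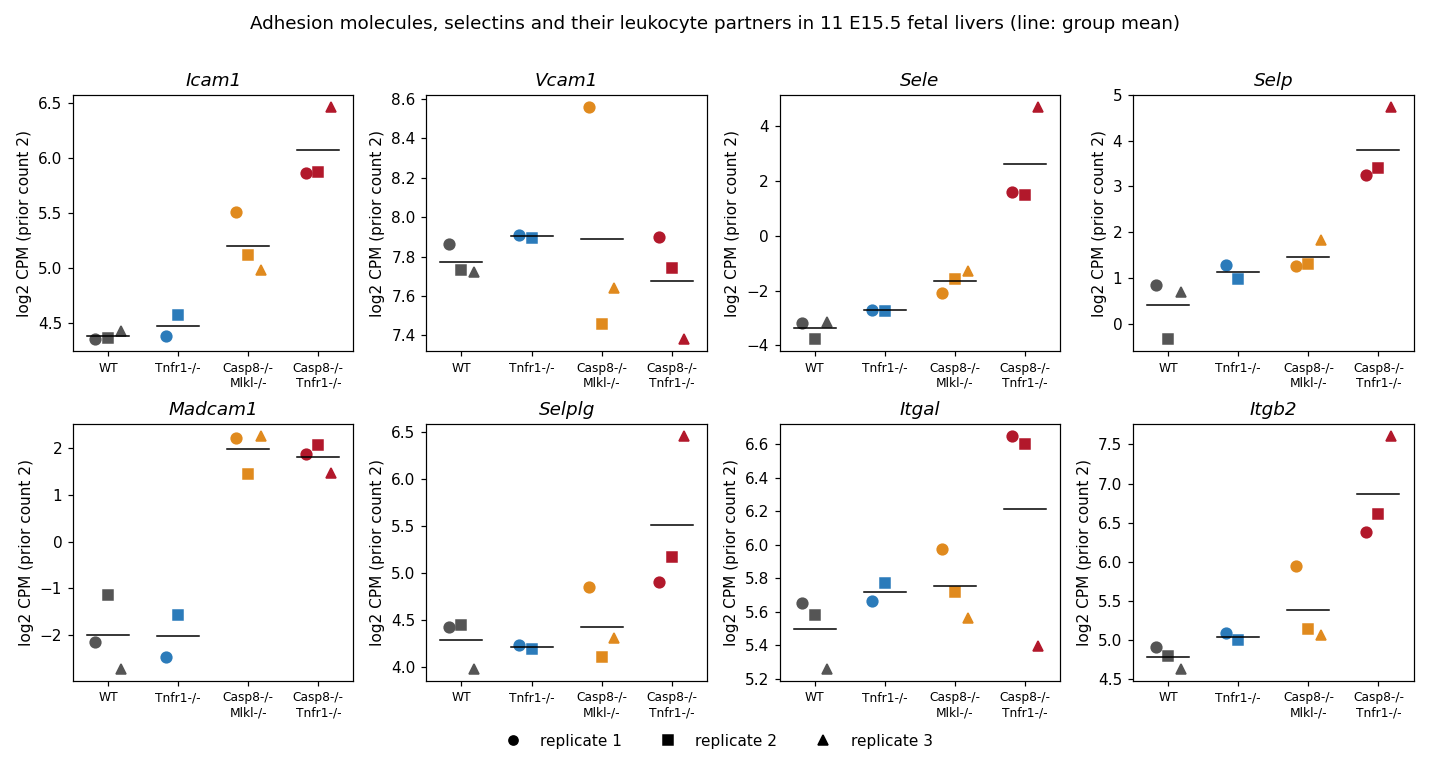
Level of each of the 8 genes in each of the 11 livers, as log2 CPM with a prior count of 2, by genotype; points are single livers, the shape gives the replicate number and the line is the group mean. Sele, Selp, Icam1, Selplg and Itgb2 were higher in all 3 Casp8-/- Tnfr1-/- livers than in the other 8, Madcam1 was high in both Casp8-deficient genotypes, and Vcam1 was not ordered by genotype.

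The plot of levels by liver shows that for Sele, Selp, Icam1, Selplg and Itgb2, 5 of the 8 genes, the lowest Casp8-/- Tnfr1-/- liver lay above the highest of the other 8 livers, as it did for 7.43% of all genes tested. The exact two-sided permutation test gave p = 0.00606 for each, which is the smallest that 3 livers against 8 allow. Sele passed the count filter through these 3 livers, so its separation and p-value are not an independent test. Against WT, 5 of 8 genes rose by edgeR's test (adjusted p under 0.05): Sele, Selp, Icam1, Madcam1 and Itgb2, where 5.1% of all genes rose. Without Sele and Madcam1, which passed the count filter through the livers in which they were high, 3 of 6 rose. The same 5 genes rose against Tnfr1-/- livers (2.05% of all genes), and Sele and Selp rose against Casp8-/- Mlkl-/- livers (1.54% of all genes). Without Sele and Madcam1, 3 of 6 rose against Tnfr1-/- and 1 of 6 against Casp8-/- Mlkl-/- livers. The median log2 fold change over the 8 genes was 1.95, 1.78 and 1.05 against WT, Tnfr1-/- and Casp8-/- Mlkl-/- livers, and over all genes tested it was -0.0015, -0.014 and -0.033. Without Sele and Madcam1 the medians were 1.55, 1.55 and 1.05. The comparisons share the Casp8-/- Tnfr1-/- livers. Whole tissue was sequenced, so more RNA per cell and more cells of a type cannot be told apart.

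No gene of the 8 passed edgeR's test in Casp8-/- Mlkl-/- against WT livers, where 0.0058% of all genes, or 1 gene, were called in either direction. At an unadjusted p under 0.05 there were 3, Madcam1, Icam1 and Selp, of which Madcam1 had passed the count filter through Casp8-deficient livers. The share of all genes at the unadjusted threshold was not counted, so such counts have no reference here or below. DESeq2 called 1, limma-voom called 0, and limma-voom with quality weights called 4. Over all genes DESeq2 called 79 higher and 11 lower, limma-voom 1 and 0, and limma-voom with quality weights 551 and 491. Between Tnfr1-/- and WT livers edgeR called 0.0% of all genes and none of the 8, with 0 of 8 at an unadjusted p under 0.05. DESeq2, limma-voom and limma-voom with quality weights also called 0 of the 8 there, and the log2 fold changes ran from -0.15 (Madcam1) to 1.43 (Sele). Loss of TNFR1 alone was thus not accompanied by a detected fall or rise of these genes, with 2 livers against 3.

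**Figure D2:**
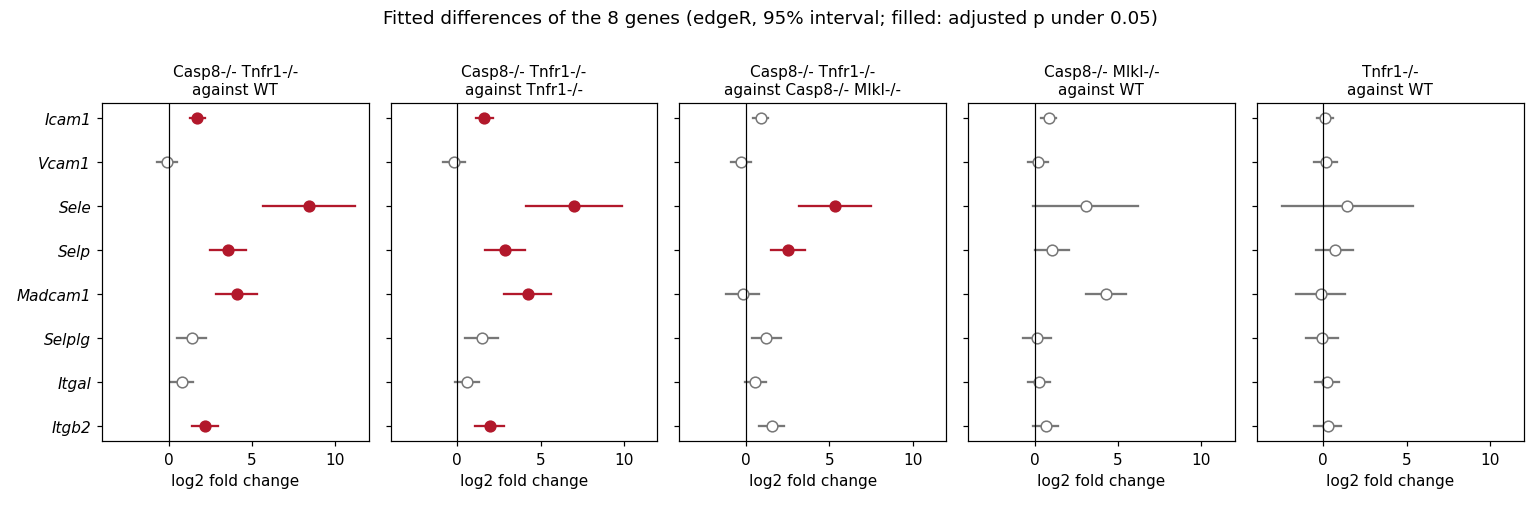
Fitted log2 fold change (edgeR) of the 8 genes in 5 comparisons, with the 95% interval; filled points have an adjusted p under 0.05 and open points do not. The calls lie in the 3 comparisons with Casp8-/- Tnfr1-/- livers, and Madcam1 lies at 4.27 in Casp8-/- Mlkl-/- against WT livers without a call.

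Sele (ENSMUSG00000026582, GRCm38 chr1:164048234-164057677, plus strand), the gene of E-selectin, went from close to no reads to a clear level. WT livers held 1, 0 and 1 reads of it, Tnfr1-/- livers 3 and 2, and Casp8-/- Mlkl-/- livers 4, 9 and 9. The Casp8-/- Tnfr1-/- livers held 98, 80 and 463 reads. In CPM these were 2.99, 2.75 and 26.4, against at most 0.344 in any other liver. The third liver was far above the other two, but all 3 were above every other liver, and each Casp8-/- Mlkl-/- liver was above each liver with intact Casp8.

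Since WT livers held so few reads of Sele, the ratio of summed reads was taken with its counting interval. It was 304 (95% interval 83.8 to 2514) in Casp8-/- Tnfr1-/- against WT, 102 (43.3 to 314) against Tnfr1-/- and 31.3 (20.5 to 50.3) against Casp8-/- Mlkl-/- livers, which covers counting error only. Replicate 3 gave 463 of the 641 reads summed over the Casp8-/- Tnfr1-/- livers. edgeR's log2 fold changes were 8.42 ± 1.24 (SE), 6.99 ± 1.30 and 5.35 ± 0.960 (adjusted p = 0.00479, 0.0241 and 0.0259). The fitted value depends on the prior count where a group is near 0. Without Casp8-/- Tnfr1-/- replicate 3, Sele still rose, by 6.55, 5.10 and 3.46 (edgeR adjusted p = 0.000129, 0.000654 and 0.00150). In Casp8-/- Mlkl-/- against WT livers the ratio of reads was 9.71 (2.39 to 85.2) and edgeR gave an adjusted p of 0.875, whereas the exact permutation test against the 5 livers with intact Casp8 gave p = 0.0179, the smallest possible for 3 against 5.

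Selp (ENSMUSG00000026580, chr1:164115264-164150026, plus strand), the gene of P-selectin, lies next to Sele in the selectin cluster of chromosome 1 and moved with it at a higher baseline. WT livers measured 1.73, 0.713 and 1.54 CPM and Tnfr1-/- livers 2.35 and 1.90. Casp8-/- Mlkl-/- livers measured 2.31, 2.41 and 3.48 CPM and Casp8-/- Tnfr1-/- livers 9.49, 10.5 and 26.8. The last group was above every other liver, again with the third liver highest, while Casp8-/- Mlkl-/- livers overlapped with Tnfr1-/- livers. The log2 fold change was 3.54 ± 0.485 (SE) against WT, 2.87 ± 0.547 against Tnfr1-/- and 2.51 ± 0.459 against Casp8-/- Mlkl-/- (edgeR adjusted p = 0.00329, 0.0274 and 0.0282). Without the third liver these were 2.91, 2.23 and 1.88 (edgeR adjusted p = 0.000811, 0.00867 and 0.0131). Antisense genes Gm16587 and Gm16548 overlap Selp, and reads of the strands cannot be told apart where strand was not used in counting, which the sources used here do not say.

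P-selectin is also a platelet protein, so markers of megakaryocytes and platelets were compared too. Of 11 such genes edgeR called 0 against WT, with 0 at an unadjusted p under 0.05. DESeq2 and limma-voom also called 0, and limma-voom with quality weights called 2 higher. Their summed level was 272 to 476 CPM in WT and 208 to 528 in Casp8-/- Tnfr1-/- livers, lowest in the third liver, in which Selp was highest.

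Selplg (ENSMUSG00000048163, chr5:113818536-113832644, minus strand) encodes PSGL-1, the ligand of both selectins on leukocytes. It measured 21.4, 21.6 and 15.7 CPM in WT, 18.7 and 18.2 in Tnfr1-/-, 28.7, 17.1 and 19.7 in Casp8-/- Mlkl-/- and 29.8, 35.8 and 87.8 in Casp8-/- Tnfr1-/- livers. All 3 Casp8-/- Tnfr1-/- livers were above the other 8, the lowest of them only just above Casp8-/- Mlkl-/- replicate 1. The log2 fold change was 1.39 ± 0.382 (SE) against WT, 1.47 ± 0.442 against Tnfr1-/- and 1.22 ± 0.381 against Casp8-/- Mlkl-/-, without a call by edgeR (adjusted p = 0.0647, 0.139 and 0.171). DESeq2 called it against WT and Tnfr1-/-. Without replicate 3 the value against WT was 0.75 (edgeR adjusted p = 0.0673).

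PSGL-1 binds selectins only after its sugars have been built, by fucosyltransferases such as Fut7, sialyltransferases and tyrosine sulfotransferases. None of 12 such genes was called by edgeR in any of the 3 comparisons of Casp8-/- Tnfr1-/- livers, where 2 against WT, 1 against Tnfr1-/- and 2 against Casp8-/- Mlkl-/- had an unadjusted p under 0.05. Limma-voom also called 0 in each, DESeq2 called 1 lower against Casp8-/- Mlkl-/-, and limma-voom with quality weights called 2 higher and 4 lower against WT. Their log2 fold changes against WT ran from -0.66 to 0.50, with a median of -0.053.

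Icam1 (ENSMUSG00000037405, chr9:21015985-21028817, plus strand), which encodes the ligand of LFA-1 and Mac-1, was present in every liver and rose in steps. It measured 20.3, 20.5 and 21.5 CPM in WT and 20.8 and 23.7 in Tnfr1-/- livers. Casp8-/- Mlkl-/- livers measured 45.4, 34.6 and 31.5 CPM and Casp8-/- Tnfr1-/- livers 58.3, 58.6 and 88.6. The livers with intact Casp8 formed a narrow band, Casp8-/- Mlkl-/- livers lay above it, and Casp8-/- Tnfr1-/- livers above both, with no overlap at either step. The log2 fold change was 1.72 ± 0.204 (SE) against WT and 1.62 ± 0.234 against Tnfr1-/- (edgeR adjusted p = 0.00136 and 0.00709), and 0.88 ± 0.199 against Casp8-/- Mlkl-/-, which missed the threshold (0.0646). For the lower step, 0.84 ± 0.200 in Casp8-/- Mlkl-/- against WT, edgeR gave an adjusted p of 0.545, and the exact permutation test against the 5 livers with intact Casp8 gave p = 0.0179. The antisense gene Gm47079 overlaps Icam1.

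Vcam1 (ENSMUSG00000027962, chr3:116109949-116129688, minus strand) did not share this. It measured 233, 212 and 211 CPM in WT, 241 and 238 in Tnfr1-/-, 377, 176 and 200 in Casp8-/- Mlkl-/- and 238, 214 and 166 in Casp8-/- Tnfr1-/- livers. The genotypes overlapped throughout, and the highest liver was Casp8-/- Mlkl-/- replicate 1. The log2 difference of Casp8-/- Tnfr1-/- livers was -0.08 (95% interval -0.68 to 0.51) from WT, -0.21 (-0.87 to 0.45) from Tnfr1-/- and -0.28 (-0.88 to 0.31) from Casp8-/- Mlkl-/- (edgeR adjusted p = 0.855, 0.720 and 0.621). Its sign against WT turned without replicate 3, to 0.056. Of 12 macrophage markers edgeR called 1 higher and 1 lower against WT. Their sum was highest in the same replicate (1536 CPM, against 404 to 706 in the other livers), and lowest in Casp8-/- Tnfr1-/- replicate 3, where Vcam1 was lowest too. Relative to the mean log2 CPM of these markers, Vcam1 was 0.96 higher (log2) in Casp8-/- Tnfr1-/- than in the other 8 livers, without overlap (exact permutation p = 0.00606). That mean was itself lower in Casp8-/- Tnfr1-/- livers, at 3.98 against 5.03 to 5.16 in the other genotypes. Each of the other genes followed was also above the other 8 livers on this scale, so this was not particular to Vcam1. Relative to 9 pan-leukocyte markers Vcam1 was lower, with a difference of -1.07, also without overlap (exact permutation p = 0.00606). Its direction thus differed between the marker lists it was set against. The antisense gene Gm43109 overlaps Vcam1.

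Madcam1 (ENSMUSG00000020310, chr10:79664559-79668537, plus strand) encodes the receptor that guides lymphocytes to gut and its lymphoid tissue, and it had a pattern of its own. WT livers held 4, 9 and 2 reads and Tnfr1-/- livers 4 and 7. Casp8-/- Mlkl-/- livers held 113, 91 and 123 reads and Casp8-/- Tnfr1-/- livers 117, 120 and 47. In CPM the livers with intact Casp8 reached at most 0.377 and the Casp8-deficient livers lay between 2.64 and 4.70, with both dKO genotypes overlapping. The log2 fold change in Casp8-/- Tnfr1-/- livers was 4.08 ± 0.540 (SE) against WT and 4.22 ± 0.639 against Tnfr1-/- (edgeR adjusted p = 0.00275 and 0.00934). The difference between the dKO genotypes was -0.19 on the log2 scale, with a 95% interval from -1.17 to 0.78 (edgeR adjusted p = 0.836). In Casp8-/- Mlkl-/- against WT livers it was 4.27 ± 0.542 (SE), with an adjusted p of 0.0606 by edgeR. Without Casp8-/- Tnfr1-/- replicate 3 in the fit that value was 4.28 and passed (edgeR adjusted p = 0.0144). Its integrin partners were named for that role, and neither was called: Itga4 had a log2 fold change of -0.44 and Itgb7 of -0.049 against WT (edgeR adjusted p = 0.371 and 0.927).

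After Madcam1 had been seen, the mean of both Casp8-deficient genotypes was set against the mean of WT and Tnfr1-/- in the same fit. In this comparison 5 of the 8 genes rose, where 2.13% of all genes did. Without Sele and Madcam1, 3 of 6 rose. The largest rises were those of Sele (log2 fold change 5.03 ± 0.914, SE) and Madcam1 (4.25 ± 0.425), with edgeR adjusted p = 0.0224 and 0.000834. Selp rose by 1.95, Itgb2 by 1.29 and Icam1 by 1.23 on the log2 scale (edgeR adjusted p = 0.0220, 0.0313 and 0.00281). Sele, Madcam1 and Icam1 were above all 5 livers with intact Casp8 in each of the 6 Casp8-deficient livers, as were 3.47% of all genes tested. The exact permutation p-values were 0.00866, 0.00216 and 0.00433, with 0.00216 the smallest possible for 6 against 5. Sele and Madcam1 passed the count filter through Casp8-deficient livers, and Madcam1 had prompted the comparison. Their separation and p-values are therefore not independent tests, and only Icam1 is free of both limits. The same 3 genes were above these 5 livers in each Casp8-/- Mlkl-/- liver, as were 5.61% of all genes. The filter limits Madcam1 there too, and Sele rested there on 4, 9 and 9 reads.

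Itgb2 (ENSMUSG00000000290, chr10:77530252-77565708, plus strand) encodes the beta chain shared by LFA-1, Mac-1 and other leukocyte integrins. It measured 30.1, 27.8 and 24.7 CPM in WT, 33.9 and 31.8 in Tnfr1-/-, 61.4, 35.1 and 33.3 in Casp8-/- Mlkl-/- and 83.5, 97.9 and 195 in Casp8-/- Tnfr1-/- livers. The last group was above every other liver, and Casp8-/- Mlkl-/- replicate 1 stood above its own group. The log2 fold change was 2.19 ± 0.341 (SE) against WT and 1.93 ± 0.393 against Tnfr1-/- (edgeR adjusted p = 0.00627 and 0.0356), and 1.54 ± 0.334 against Casp8-/- Mlkl-/-, just past the threshold on the other side (0.0566).

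Itgal (ENSMUSG00000030830, chr7:127296260-127335138, plus strand), the alpha chain that makes LFA-1 with Itgb2, split the Casp8-/- Tnfr1-/- livers. It measured 50.3, 47.8 and 38.2 CPM in WT, 50.5 and 54.5 in Tnfr1-/- and 62.9, 52.6 and 47.2 in Casp8-/- Mlkl-/- livers. Casp8-/- Tnfr1-/- livers measured 100.2, 97.0 and 41.9 CPM. Replicates 1 and 2 were above every other liver and replicate 3 was below all but 1 of them. The log2 fold change was 0.81 ± 0.289 (SE) against WT (edgeR adjusted p = 0.126), and the exact permutation test against the other 8 livers gave p = 0.0485. Without replicate 3 it rose by 1.13, 0.91 and 0.87 on the log2 scale against WT, Tnfr1-/- and Casp8-/- Mlkl-/- livers (edgeR adjusted p = 0.00165, 0.0135 and 0.0132).

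The other alpha chains that pair with Itgb2 show what stood beside it in that liver. Per kilobase, Itgal made up 74.4 to 77.2% of the summed levels of Itgal, Itgam, Itgax and Itgad in WT. The share was 62.3, 56.9 and 21.1% in Casp8-/- Tnfr1-/- livers, the last in replicate 3, where Itgam, the alpha chain of Mac-1, reached 23.8 CPM per kb against 1.47 to 2.41 in WT. Casp8-/- Mlkl-/- livers divided in the same way, with 63.5% in replicate 1 and 80.0 and 81.1% in the other two. The level of Itgb2 over the summed alpha chains was 0.956 to 1.07 in WT and 1.12, 1.23 and 2.11 in Casp8-/- Tnfr1-/- livers.

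**Figure D3:**
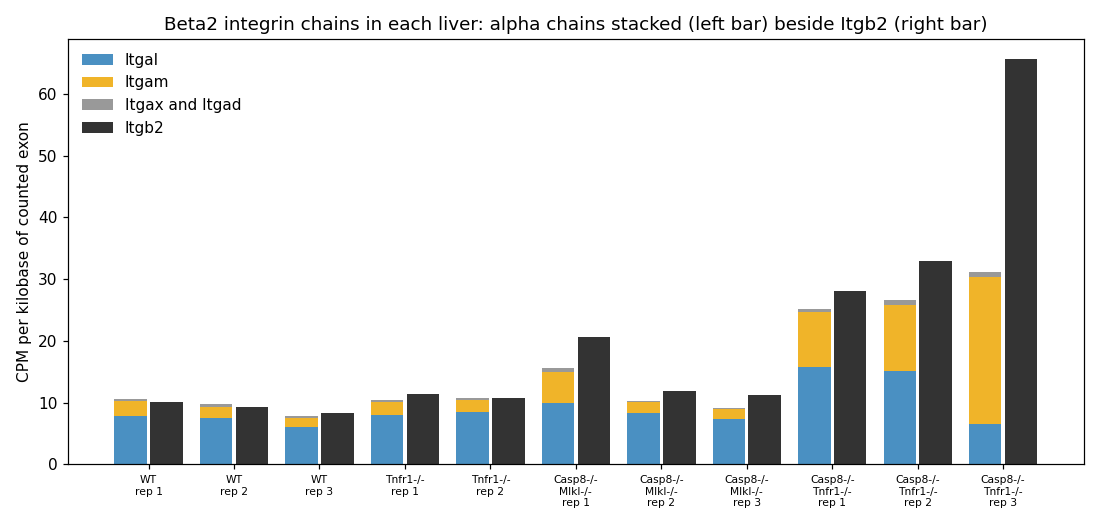
Level per kilobase of counted exon of the beta2 integrin alpha chains (left bar of each pair, stacked) and of Itgb2 (right bar) in each liver. Bars are single livers; Itgb2 and the alpha chains are of like height in WT, and in Casp8-/- Tnfr1-/- replicate 3 Itgam takes most of the alpha chains and Itgb2 exceeds their sum.

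Other genes of leukocyte adhesion were taken from lists of the endothelial and the leukocyte side. On the endothelial side, 14 of 16 listed genes were tested, and edgeR called 1 higher against WT, Pecam1, a molecule of endothelial junctions and leukocytes (log2 fold change 1.30 ± 0.323, SE, adjusted p = 0.0449). It called 0 of 14 against Tnfr1-/- and against Casp8-/- Mlkl-/- livers, where 5 and 3 had an unadjusted p under 0.05, DESeq2 called 3 and 0, limma-voom called 0 and 0, and limma-voom with quality weights 7 and 3. Their median log2 fold change against WT was 1.12. On the leukocyte side, Itgam (log2 fold change 2.92 ± 0.524, SE) and the hyaluronan receptor gene Cd44 (0.89 ± 0.103) rose against WT, with edgeR adjusted p = 0.0116 and 0.00118. Icam4, an erythroid adhesion gene, fell by 1.22 on the log2 scale (edgeR adjusted p = 0.0343). Cd44 was the 1 gene of this list that rose against Casp8-/- Mlkl-/- livers too (0.57 ± 0.102, SE, edgeR adjusted p = 0.0272).

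TNF and IL-1 are the classic inducers of Sele, Selp, Icam1 and Vcam1. Of 14 listed inducing cytokines and their receptors, 10 were tested, and 5 rose against WT, led by Il1b (log2 fold change 4.25 ± 0.651, SE) and Tnf (2.69 ± 0.546), with edgeR adjusted p = 0.00586 and 0.0203. The others were the IL-1 receptor gene Il1r1 (95% interval of the log2 fold change 0.96 to 2.05), the gene of the other TNF receptor Tnfrsf1b (1.05) and the interferon gamma receptor gene Ifngr2 (0.85), with edgeR adjusted p = 0.00729, 0.0398 and 0.0262. Il1b, Tnf and Il1r1 also rose against Tnfr1-/- livers (3.80, 3.40 and 1.29, edgeR adjusted p = 0.0283, 0.0306 and 0.0463). Against Casp8-/- Mlkl-/- livers edgeR called 0 of 10, with 6 at an unadjusted p under 0.05, DESeq2 called 2, limma-voom 1 and limma-voom with quality weights 8. Il1b was low throughout, at 3.13 ± 0.982 CPM (SD, n = 3) in Casp8-/- Tnfr1-/- and 1.40 ± 1.19 in Casp8-/- Mlkl-/- livers against 0.159 ± 0.0360 in WT. Tnf measured 3.59 ± 1.27, 0.846 ± 0.384 and 0.553 ± 0.370 CPM (SD, n = 3) in the same groups.

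The endothelial genes were also set against markers of endothelial cells. Of 14 markers such as Cdh5, edgeR called 0 in Casp8-/- Tnfr1-/- against WT livers, with 5 at an unadjusted p under 0.05 and a median log2 fold change of 0.40. DESeq2 called 2 higher, limma-voom 0, and limma-voom with quality weights 2 higher and 1 lower. Their sum was 540 to 606 CPM in WT livers, 564 and 593 in 2 Casp8-/- Tnfr1-/- livers and 1216 in replicate 3, and no marker was at 0 in any group. Subtracting the mean log2 CPM of these markers from each gene left Sele 4.82 and Selp 2.47 higher (log2) in Casp8-/- Tnfr1-/- than in the other 8 livers. On this scale Icam1 was at 0.38 in the lowest Casp8-/- Tnfr1-/- liver and 0.11 in the highest of the others. None of the 3 genes overlapped, and the exact permutation p was 0.00606 for each. Sele passed the count filter through the Casp8-/- Tnfr1-/- livers, so its separation is not an independent test on this or the next scales. Relative to 9 pan-leukocyte markers Sele and Selp stayed above, by 4.28 and 1.93, but Icam1 overlapped (0.46, exact permutation p = 0.0667). Relative to 11 neutrophil markers Sele stayed above, by 3.13. Icam1 (-0.69) and Selp (0.78) overlapped there (exact permutation p = 0.0606 and 0.170). Without replicate 3, Icam1 differed by 0.24 and -0.83 on these 2 scales, the latter without overlap. Relative to the endothelial markers, Madcam1 was 3.72 higher in Casp8-/- Mlkl-/- than in the 5 livers with intact Casp8 (exact permutation p = 0.0179). Madcam1 passed the count filter through Casp8-deficient livers, so this is not an independent test either.

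Of the leukocyte partners only Itgb2 had been called, and leukocyte marker lists differed in direction. Of 9 pan-leukocyte markers, edgeR called 6 higher against WT, 4 against Tnfr1-/- and 3 against Casp8-/- Mlkl-/- livers, and their sum was 1003 to 1448 CPM in Casp8-/- Tnfr1-/- against 473 to 811 in the other livers. Of 11 neutrophil markers 5 were higher against WT, with sums of 5300 to 14959 CPM in Casp8-/- Tnfr1-/- against 1130 to 3446 in the others, highest in replicate 3. The markers did not all move together. Mpo, Elane and Prtn3 ran from 53.4 to 819, 14.4 to 143 and 35.4 to 259 CPM in Casp8-/- Tnfr1-/- livers. Their lowest values in the other genotypes were 336, 48.7 and 64.8 CPM. Against Tnfr1-/- livers edgeR called 1 of the 11 and against Casp8-/- Mlkl-/- livers 0, with 7 at an unadjusted p under 0.05 in each, and in the latter DESeq2 called 5, limma-voom 2 and limma-voom with quality weights 10. Macrophage markers had a median log2 fold change of -0.27 against WT and 8 tested lymphoid markers of -0.63. Relative to the pan-leukocyte markers, Selplg differed by 0.30 and Itgal by -0.33 (log2) between Casp8-/- Tnfr1-/- and the other 8 livers, and both overlapped (exact permutation p = 0.339 and 0.200). Without replicate 3 these differences were -0.20 and 0.058, of the opposite sign. Itgb2 was above the other 8 livers on this scale, by 0.90 (exact permutation p = 0.00606) and by 0.51 without replicate 3. Relative to the neutrophil markers Itgb2 differed by -0.25 and overlapped (exact permutation p = 0.376), and Selplg and Itgal differed by -0.85 and -1.48, overlapping as well (exact permutation p = 0.0242 and 0.0121). Without replicate 3 the values on the neutrophil scale were -0.56 for Itgb2, -1.27 for Selplg, then without overlap, and -1.02 for Itgal. The part of cell numbers in the levels of Selplg, Itgal and Itgb2 was not tested.

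**Figure D4:**
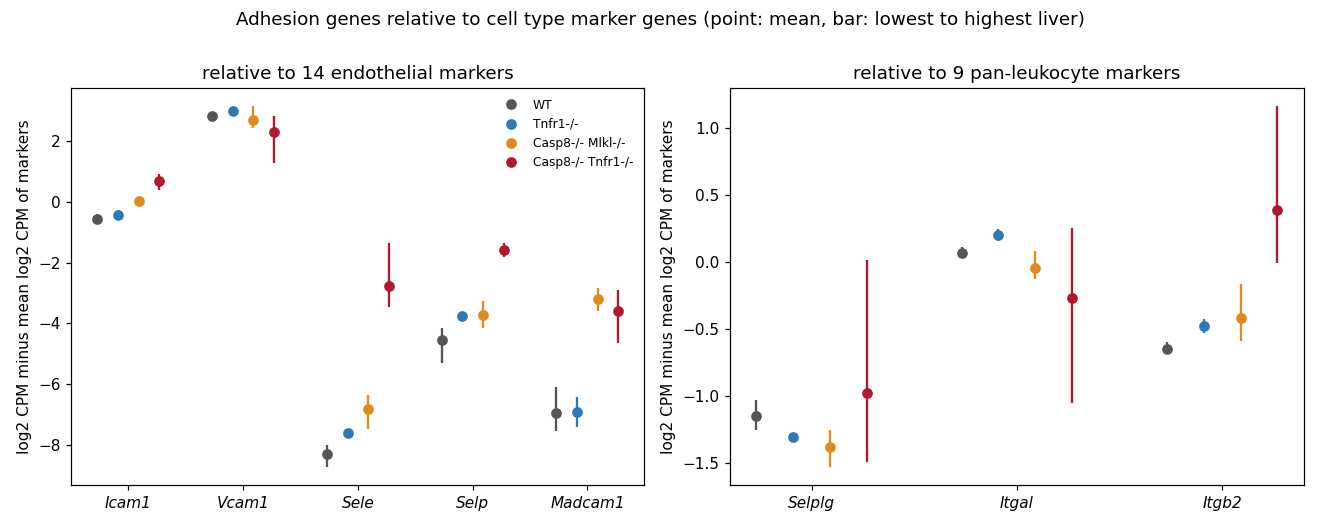
Log2 CPM of each gene minus the mean log2 CPM of 14 endothelial markers (left, endothelial genes) or 9 pan-leukocyte markers (right, leukocyte genes), by genotype; points are group means and bars run from the lowest to the highest liver. Sele, Selp and Icam1 stay above the other genotypes in Casp8-/- Tnfr1-/- livers, Madcam1 is high in both Casp8-deficient genotypes, and Selplg and Itgal overlap with the controls.

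The genes whose levels ran most like each of the 8 over the 11 livers were found by the root mean square difference of mean-centred log2 CPM, a description without a test. Nearest to Icam1 were Nampt (0.144) and Mvp (0.146), and nearest to Itgb2 were Ncf4, a subunit of the phagocyte oxidase (0.125), and Ptprc, which encodes CD45 (0.136). Selplg ran most like Ubtd1 (0.114) and Fcgr3, a phagocyte Fc receptor gene (0.131), Itgal like Tuba8 (0.106) and Vcam1 like Dnajc22 (0.0883). Nearest to Sele was Ccl2, a monocyte chemoattractant (0.639), and to Selp Loxl4 (0.377). Nearest to Madcam1 was Il1b, at 1.03. The measure grows with the spread of a gene, so its values cannot be ranked across genes. Vcam1 had an SD of 0.293 over the 11 livers and a median difference of 0.474 from all genes, and Madcam1 1.99 and 2.04. Among the 8 genes themselves, Icam1 and Itgb2 had the smallest difference (0.304) and Sele and Vcam1 the largest (2.65), with the same limit.

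Single livers decided some calls. Against WT the same 5 genes were called with any 1 liver left out, joined by Selplg without Casp8-/- Tnfr1-/- replicate 1 or 2 and by Itgal without replicate 3. These fits called 270 to 1297 of all genes tested higher, where the main fit called 879. Against Tnfr1-/- livers, leaving out either Tnfr1-/- liver ended every edgeR call of the 8 genes (0 of 8), as did a fit of those 2 genotypes alone. Calls over all genes fell as well, from 353 higher in the main fit to 29, 37 and 53. Leaving out WT replicate 1 or 2 lost Itgb2, leaving out WT replicate 3 lost Itgb2 and Selp, and leaving out Casp8-/- Tnfr1-/- replicate 3 added Itgal. Against Casp8-/- Mlkl-/- livers, Sele and Selp were both lost in each of 5 such fits (without WT replicate 3, either Tnfr1-/- liver, or Casp8-/- Mlkl-/- replicate 2 or 3), and Sele without WT replicate 1. Over all genes those 5 fits called 71 to 162 higher, where the main fit called 265. Without Casp8-/- Mlkl-/- replicate 1, Icam1 and Itgb2 were called in place of Sele and Selp, and without Casp8-/- Tnfr1-/- replicate 3 there were 5, Sele, Selp, Icam1, Itgal and Itgb2. Over all genes these fits called 518 and 482 higher. In the comparison by Casp8 status only Icam1 and Madcam1 were called without WT replicate 2 or 3 or either Tnfr1-/- liver, and these and Selp without WT replicate 1. Over all genes the fits without one of these livers called 77 to 190 higher, where the main fit called 368. Without both livers that stood apart, 7 of 8 genes were called in each of the 3 comparisons of Casp8-/- Tnfr1-/- livers. The exception was Vcam1 for WT and Tnfr1-/- livers and Madcam1 for Casp8-/- Mlkl-/- livers, where Vcam1 differed by 0.28. In Casp8-/- Mlkl-/- against WT, 4 were called, Sele, Selp, Icam1 and Madcam1. Calls over all genes rose too, to 3017 higher and 2297 lower with WT as reference, where the main fit had 879 and 121. With Tnfr1-/- as reference they were 2354 and 1577, and with the other dKO genotype 2032 and 1035. For Casp8-/- Mlkl-/- relative to WT they were 547 and 539, where the main fit had 1 and 0. The added calls were thus not particular to the 8 genes.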

How the data were processed

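RNA of 11 single E15.5 livers was sequenced. The paper's methods and the sample labels name different library kits and sequencers, and this is not settled here. The authors aligned reads to GRCm38 with GSNAP and deposited, per liver, counts of reads on the exons of each gene, the counted width in bases and RPKM. The counting tool, annotation release and use of strand are not given in the sources used here. The deposited counts are not normalized. The width that the authors deposited served for levels per kilobase, and the RPKM values, which the authors deposited as counts scaled by width and library size, were not used in any test.

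Names and positions came from GENCODE M 21, which named 52403 of 52636 genes, and promoter sequences from RefSeq, whose transcript starts can differ from GENCODE's. The 8 genes, all gene lists and the tests were chosen with earlier results of these data known. Genes named in the text are the 8, the targeted genes, called genes of the lists (up to 5 a list), the inducing cytokines and receptors, and the nearest genes by likeness; Itga4 and Itgb7 were added as known partners. A result of the leukocyte adhesion list is not reported here.

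Counts were filtered by filterByExpr (minimum count 10), normalized by TMM and fitted in edgeR 4.0.16 (glmQLFit, glmQLFTest, genotype as the only factor, all 11 livers), with Benjamini-Hochberg adjustment over 17243 genes and a threshold of 0.05. CPM values use TMM-scaled library sizes (TMM factors of 0.758 and 0.812 in the livers that stood apart and 1.01 to 1.09 elsewhere), and log2 CPM a prior count of 2. Other tools were DESeq2 1.42.0 and limma 3.58.1, run in R 4.3.3, with tests of means by exact two-sided permutation in Python 3.11.15. The scripts were tested on simulated data. Where nothing says that livers came from separate litters, p-values measure only the spread between these livers. Intervals of counts cover counting error only. No pair of livers was the same library (chi-square of at least 6.45 per degree of freedom).

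Alternatives were DESeq2 size factors, library sizes without hemoglobin genes, DESeq2's Wald test, limma-voom with and without quality weights, robust estimation, other filters, a fit of 2 genotypes, the replicate number as a block and each liver left out. The comparison by Casp8 status, the fit without 2 livers, the counts without Sele and Madcam1 and the marker-relative values without replicate 3 were added after the data had been seen.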

Additional observations from a re-analysis of the deposited data

How the results depend on the processing

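Of 1045 recomputed log2 fold changes of the 8 genes, 918 kept their direction and their side of the threshold, 58 lost the call, 49 gained one and 20 turned sign. Against WT the number of the 8 genes called stayed between 4 and 7 in every alternative run, and 5 to 6 when single livers were left out. Of all genes tested, 270 to 3017 were called higher in these runs, and 270 to 1297 when single livers were left out. Sele and Madcam1, which passed the count filter through the livers in which they were high, are among the 8 throughout. DESeq2 gave no adjusted p for Sele. A fit of only the 2 genotypes compared called 0 of the 8 against Tnfr1-/- and 0 against Casp8-/- Mlkl-/- livers. Fewer samples were in these fits, which called 53 and 10 of all genes tested higher. Leaving out 1 liver gave 0 to 6 against Tnfr1-/-, 0 to 5 against Casp8-/- Mlkl-/-, 0 to 1 in Casp8-/- Mlkl-/- against WT and 2 to 6 by Casp8 status. Among all genes tested, the calls higher ran from 29 to 759, 71 to 518, 0 to 24 and 77 to 1040, in this order. Limma-voom with quality weights called 6 against Casp8-/- Mlkl-/- and 4 in Casp8-/- Mlkl-/- against WT, where DESeq2 and the unfiltered fit called 1 each. Over all genes, quality weights called 1894 higher and 815 lower in the first of these comparisons and 551 and 491 in the second. In the second, DESeq2 called 79 higher and 11 lower and the unfiltered fit 11 and 3. Without both Casp8-/- Mlkl-/- replicate 1 and Casp8-/- Tnfr1-/- replicate 3, chosen after seeing the data, 7 and 4 of the 8 genes were called in these comparisons. Calls over all genes rose in that fit as well, as given above. Apart from fewer samples, the cause was not tested.

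Values that turned sign were small or rested on few reads. For Vcam1 they were, with quality weights, 0.048 (Casp8-/- Tnfr1-/- against WT), 0.21 (against Casp8-/- Mlkl-/-) and -0.16 (Casp8-/- Mlkl-/- against WT), and without both livers 0.065, 0.28 and -0.22 in this order. Selplg in Casp8-/- Mlkl-/- against WT turned to -0.077 with quality weights and -0.086 without both livers, and Madcam1 between the dKO genotypes to 0.093 without both; with 1 liver left out it stayed negative, from -0.40 to -0.038. With the replicate number as a block, Vcam1 by Casp8 status turned to 0.0046. With 1 liver left out, Vcam1 ran from -0.19 to 0.056 against WT, -0.47 to 0.14 against Casp8-/- Mlkl-/-, -0.22 to 0.39 in Casp8-/- Mlkl-/- against WT and -0.22 to 0.092 by Casp8 status. Selplg ran from -0.085 to 0.30 in Casp8-/- Mlkl-/- against WT and Madcam1 from -0.85 to 0.62 in Tnfr1-/- against WT.

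No pairing of livers by replicate number was evident, as deviations of same-numbered livers correlated between -0.30 and 0.27. With 2 to 3 livers a group, this check cannot show that pairing was absent. With the replicate number as a block, 5 genes were called against WT, 4 against Tnfr1-/-, 2 against Casp8-/- Mlkl-/- and 4 by Casp8 status. That fit called 532, 182, 130 and 201 of all genes tested higher, in this order. With 2 to 3 livers a group, precision is set by the spread between livers, and for Sele and Madcam1 in WT also by counts of 0 to 9 reads.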
